A study of Mus musculus with 14 samples.

Results

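Tubulins are the building blocks of microtubules, the hollow filaments that carry cargo along axons, pull chromosomes apart and shape migrating neurons. The 10 tubulin genes described here were chosen by name: the alpha-tubulins Tuba1a, Tuba1b and Tuba1c, the beta-tubulins Tubb2a, Tubb2b, Tubb3, Tubb4a, Tubb4b and Tubb5, and the gamma-tubulin Tubg1. They are 10 of 51626 genes with a symbol in each of 3 expression tables, and 18 of 127975 matched transcripts. An alpha- and a beta-tubulin protein pair up as the dimer that polymerizes, and gamma-tubulin starts new filaments as part of a ring complex. Within the alpha and within the beta family the proteins are closely similar, and isotypes differ most in the tail at the protein's end, which lies on the outside of the filament. In human, mutations in the genes for the neuronal isotypes cause malformations of the cerebral cortex.

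The study concerned AUTS2, a nuclear protein linked to autism and intellectual disability. RNA came from newborn mice at postnatal day 0.5. In frontal cortex there were 4 cKO biological replicates, homozygous for a floxed Auts2 exon 15 and carrying Emx1-Cre on C57BL6/J, and 4 wild type C57BL6/J biological replicates without these alleles. Emx1-Cre acts in the progenitors of cortical excitatory neurons and glia, so that interneurons, microglia and vessel cells of the dissected tissue keep the gene. No group with Cre or the floxed alleles alone was analysed here. For the pull-down, cortex of C57BL6/J animals was pooled from 2 neonates per replicate, and each of 2 pools was divided into an AUTS2 RIP library (RNA immunoprecipitated with an antibody to the AUTS2 C-terminus), an IgG library (the same with non-specific antibody) and an input library (10% of the lysate). The labels do not say how many animals stand behind a frontal cortex replicate. A p-value here sets a group difference against the spread between these libraries, which the fit estimates with help from all genes. In bulk tissue, fewer cells of a type and less RNA per cell cannot be told apart.

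All values are FPKM, fragments scaled to transcript length and to the size of the library, as the authors deposited them. Summed FPKM per library ran from 282029 to 340979, and the number of fragments behind them is unknown. Auts2 itself stood at 29.8 to 35.2 FPKM in cKO and at 55.9 to 92.2 FPKM in wild type libraries, without overlap. Of the marker lists for 10 cell types, no gene was at 0 in a whole table. Summed markers of postmitotic neurons were at 1943 to 2199 FPKM in cKO and 1974 to 2177 FPKM in wild type libraries, and those of radial glia at 381 to 445 FPKM in cKO and 362 to 442 FPKM in wild type libraries. Wild type 1 and 2 and cKO 1 stood apart from the other frontal cortex libraries, and results without them are given where they differ.

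The coding sequences of the members are close relatives, which bears on how well short reads tell them apart. Sequences and positions are from GENCODE vM21 on GRCm38, the build of the deposited tables. Among the 3 alpha genes, the coding bases were 97.1% to 98.3% identical in pairs, and among the 6 beta genes 81.2% to 96.5%. Between alpha and beta genes identity was 53.5% to 55.9%, and between Tubg1 and the other members 49.6% to 53.4%. The first 30 coding bases are shown for 4 members, because the first 4 codons, in capitals, encode the short peptide by which cells sense excess alpha- and beta-tubulin and destroy the mRNA during translation. That peptide reads methionine, arginine, glutamate and then cysteine in alpha- or isoleucine in beta-tubulin. Gamma-tubulin starts differently.
Tuba1a: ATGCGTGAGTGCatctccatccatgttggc
Tubb2b: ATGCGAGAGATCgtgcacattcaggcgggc
Tubb3: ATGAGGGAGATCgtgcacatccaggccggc
Tubg1: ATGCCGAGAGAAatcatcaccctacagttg

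The last 75 coding bases, with the stop codon, are shown for the beta genes because they encode the acidic tails in which the isotypes differ most. Capitals mark the bases that differ from Tubb2b, or have no partner in it, in a global alignment of the coding sequences. Bases of Tubb2b that are absent from another gene are not marked. All the ends shown lie in exon 4 of 4.
Tubb2b (chr13:34127471-34127545, minus strand): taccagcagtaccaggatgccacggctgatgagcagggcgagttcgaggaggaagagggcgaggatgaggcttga
Tubb2a (chr13:34074468-34074542, minus strand): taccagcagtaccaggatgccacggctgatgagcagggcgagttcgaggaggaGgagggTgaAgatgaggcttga
Tubb3 (chr8:123421608-123421682, plus strand): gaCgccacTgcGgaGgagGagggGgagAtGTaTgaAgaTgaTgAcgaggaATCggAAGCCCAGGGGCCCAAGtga
Tubb4a (chr17:57080690-57080764, minus strand): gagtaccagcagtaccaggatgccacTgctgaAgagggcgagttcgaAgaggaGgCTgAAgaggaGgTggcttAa
Tubb4b (chr2:25222308-25222382, minus strand): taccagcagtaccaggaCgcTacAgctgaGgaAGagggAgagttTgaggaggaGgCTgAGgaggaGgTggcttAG
Tubb5 (chr17:35834982-35835056, minus strand): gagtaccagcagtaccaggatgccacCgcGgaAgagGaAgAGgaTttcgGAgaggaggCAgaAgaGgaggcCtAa

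By this marking, Tubb2a differed from Tubb2b at 3 of these 75 bases, Tubb4a at 11, Tubb5 at 16, Tubb4b at 17 and Tubb3 at 34. The count of Tubb3 includes bases with no partner in Tubb2b. Over the whole main transcript, 75.5% of all windows of 50 bases in Tuba1a, 83.1% in Tuba1b and 61.0% in Tuba1c also occurred in transcripts of other genes. For Tubb2a the share was 49.6% and for Tubb2b 39.3%, mostly with each other, and for Tubb4b 55.5%, mostly with its pseudogenes Tubb4b-ps1 and Tubb4b-ps2. For Tubg1 it was 14.1%, nearly all with its sister gene Tubg2. Tubb5 shared 0.115% of its windows, Tubb4a 0.184% and Tubb3 none. Values of the alpha genes and of Tubb2a, Tubb2b and Tubb4b are thus uncertain wherever the authors' estimate had to divide shared fragments.

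In frontal cortex Tubb2b, Tubb5 and Tubb2a were among the most abundant mRNAs of the tissue, and 2 members that newborn cortex is known to express strongly were listed at 0. Tubb2b, an isotype of radial glia and young neurons, ranked 2 among the genes as listed in each of the 8 libraries, where genes at 0 could not rank. In the input libraries, made with another kit, Tubb2b ranked 20 to 24 and Tubb5 23 to 28. Tubb5, a broadly expressed isotype needed for progenitor division, ranked 3 to 6 in cKO and 4 in wild type libraries. Tubb2a, a neuronal isotype, ranked 19 to 24 in cKO libraries and 21 or 22 in those of wild type. Tubb4a ranked 281 to 372 in cKO libraries, against 220 to 319 in those of wild type. Tubb4b ranked 701 to 793 in cKO libraries, against 662 to 795 in those of wild type. By level per length, the order was Tubb2b, Tubb5, Tubb2a, Tubb4a, Tuba1b, Tubb4b, Tubg1 and Tuba1c, and the ranges of no 2 neighbours overlapped over the 8 libraries.

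Tuba1a, the main alpha-tubulin of postmitotic neurons, was at 0 FPKM in all 8 frontal cortex libraries. So was Tubb3, the beta-tubulin by which neurons are usually stained. In the pull-down tables, Tuba1a had 398 and 324 FPKM in AUTS2 RIP and 522 and 476 FPKM in input libraries, and Tubb3 had 354 and 283 FPKM in AUTS2 RIP and 289 and 277 FPKM in input libraries. These zeros may be failed estimates, and no statement on the cKO can be made for either gene. Each of them is overlapped by a longer gene model on the same strand, and the model over Tuba1a also overlaps Tuba1b, which was not at 0.

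Tubb3 (chr8:123411424-123422015, plus strand, 4 exons) lies 0.7 kb downstream of Mc1r, the melanocortin receptor gene, and inside the span of Gm20388 (chr8:119910841-124345722, plus strand), a model of 16 exons that stretches over 4.43 Mb. No exon base of Gm20388 is shared with Tubb3. All 210 genes in the tables that overlap this span were at 0 in all 8 frontal cortex libraries. They included 74 protein-coding genes, of which 55 had a mean of at least 1 FPKM in both pull-down tables and 27 at least 10 FPKM. Ankrd11, a chromatin regulator, averaged 114 FPKM in the 2 input libraries, and Cox4i1, a subunit of the respiratory chain, averaged 75.6 FPKM there; both were chosen after their values were seen. Within 1 Mb on either side of the span, none of 33 protein-coding genes was at 0 in all 8 libraries. Over the whole genome, 34 of the 5625 protein-coding genes with at least 10 FPKM in both pull-down tables were at 0 throughout frontal cortex, and 27 of these 34 lay in the span.

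**Figure D1:**
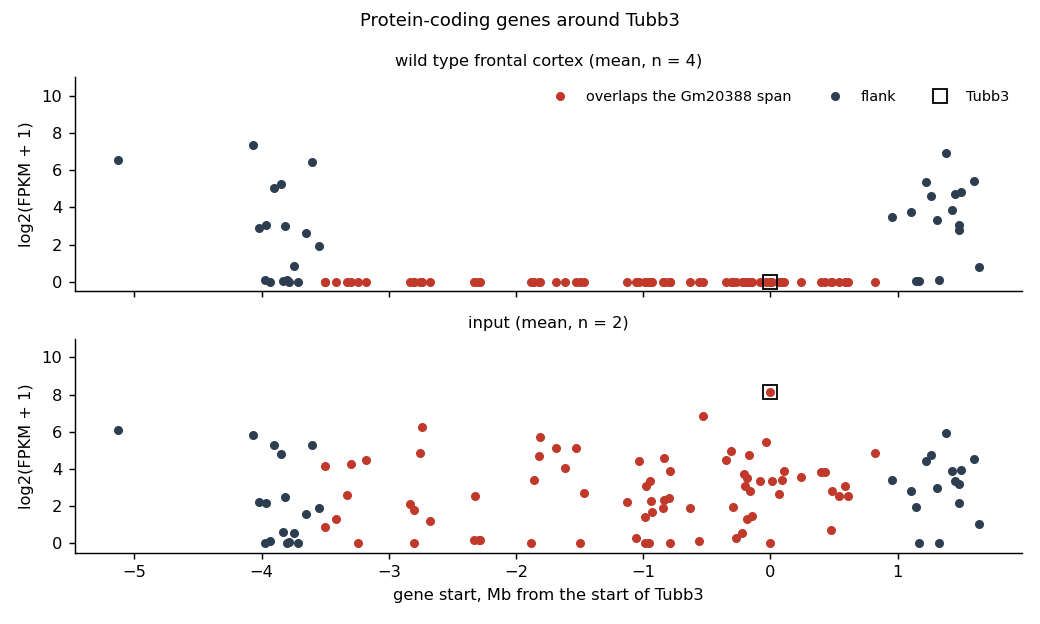
Level of each protein-coding gene, as log2(FPKM + 1), against the distance of its start from that of Tubb3 in Mb, in wild type frontal cortex (upper panel, mean of 4 libraries) and input (lower panel, mean of 2). All 74 genes that overlap the Gm20388 span (red) sit at 0 in the upper panel and 55 of them reach at least 1 FPKM in both pull-down tables, while none of the 33 flanking genes (dark) is at 0 in all 8 frontal cortex libraries.

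Tuba1a (chr15:98949837-98953703, minus strand, 4 exons) and Tuba1b (chr15:98931425-98934565, minus strand, 4 exons) lie 15.3 kb apart. Gm49450 (chr15:98932137-98953551, minus strand) is a model of 899 bases that joins exons of both: 473 of its bases are exonic in Tuba1a and 426 in Tuba1b. It was at 0 in all 8 frontal cortex libraries, as Tuba1a was. In the pull-down tables Gm49450 had 178 and 152 FPKM in AUTS2 RIP and 309 and 274 FPKM in input libraries. Tuba1b, the alpha-tubulin most used outside neurons, had the opposite pattern, with 113 to 120 FPKM in cKO and 89.5 to 118 FPKM in wild type frontal cortex, but 12.8 and 8.28 FPKM in AUTS2 RIP and 12.7 and 10.7 FPKM in input libraries. With Tuba1a and Gm49450 at 0, Tuba1b made up the sum of the 3 in frontal cortex, while that sum was 589 and 484 FPKM in AUTS2 RIP and 843 and 761 FPKM in input libraries. The tables were scaled separately and come from different library kits, so these levels are set side by side and were not compared by a test. Whether the overlapping models produced the zeros was not tested.

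With the alpha genes in this state, the ratio of alpha to beta values cannot be read as a ratio of tubulins. The 3 alpha members together had 115 to 123 FPKM in cKO and 91.8 to 121 FPKM in wild type libraries, while the 5 beta members above 0 had 3813 to 4127 FPKM in cKO and 3663 to 4209 FPKM in wild type libraries. In the pull-down tables the 3 alpha members had 413 and 334 FPKM in AUTS2 RIP and 539 and 491 FPKM in input, and the 6 beta members 1951 and 1627 FPKM in AUTS2 RIP and 1867 and 1776 FPKM in input libraries. The members took 1.15% to 1.28% of all FPKM over the 8 frontal cortex libraries, a share to which Tuba1a and Tubb3, listed at 0, added nothing.

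The first comparison asked whether loss of AUTS2 in the Emx1 lineage changed tubulin mRNA in newborn frontal cortex. None of the 8 members that could be tested was called, at an adjusted p of 0.05 by limma with Benjamini-Hochberg adjustment over all 12786 genes tested. The called share of all genes was 0.0235%, or 3 genes, and 1011 genes had an unadjusted p under 0.05, Tuba1b among them. No member was free of overlap between the groups, against 4.41% of all genes. Xist, which silences an X chromosome in female cells, was above 10 FPKM in 3 of 4 cKO and 1 of 4 wild type libraries, and no member was called with this state as a covariate. The median log2 fold change (cKO over wild type, on log2(FPKM + 1)) was 0.03 for the 8 members and 0.00 for all genes.

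Among the beta-tubulins, Tubb2b had 2043, 1803, 1974 and 1945 FPKM in cKO and 1904, 2056, 1814 and 1781 FPKM in wild type libraries. The groups overlapped almost fully, and the log2 difference was 0.04 (SE 0.06, 95% interval -0.10 to 0.18, adjusted p = 0.838). Tubb5 had 1236, 1183, 1172 and 1199 FPKM in cKO and 1179, 1272, 1165 and 1099 FPKM in wild type libraries, with a log2 difference of 0.02 (SE 0.06, adjusted p = 0.896). The interval of Tubb5 ran from -0.10 to 0.15. Tubb2a had 633, 597, 625 and 645 FPKM in cKO and 583, 616, 598 and 566 FPKM in wild type libraries, where wild type 2 and 3 fell among the cKO values. Its log2 difference was 0.08 (SE 0.05, adjusted p = 0.663).

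Tubb4a, an isotype of neurons and later of oligodendrocytes, was the only tested member with a negative difference. It had 130, 151, 145 and 156 FPKM in cKO and 156, 177, 156 and 140 FPKM in wild type libraries, a log2 difference of -0.11 (SE 0.08, adjusted p = 0.680). Tubb4b, a widely expressed isotype that also builds cilia, was the steadiest member between replicates together with Tubb2a. It had 83.6, 79.9, 81.7 and 84.6 FPKM in cKO and 79.8, 87.6, 80.0 and 77.9 FPKM in wild type libraries, a log2 difference of 0.02 (SE 0.06, adjusted p = 0.916).

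Among the alpha-tubulins, Tuba1b had 119, 120, 118 and 113 FPKM in cKO and 89.5, 104, 118 and 100 FPKM in wild type libraries. Wild type 3 lay within the cKO values and the other 3 wild type libraries below them. The log2 difference, 0.20 (SE 0.08, 95% interval 0.03 to 0.36), was the largest of the members, with an unadjusted p of 0.0262 by limma and an adjusted p of 0.628. Tuba1c, an alpha-tubulin of low level in brain, had 3.98, 2.82, 2.48 and 2.43 FPKM in cKO and 2.32, 3.46, 3.06 and 2.74 FPKM in wild type libraries, with a log2 difference of 0.00 (SE 0.14). Tubg1 had 16.3, 15.6, 15.0 and 17.5 FPKM in cKO and 12.6, 13.6, 18.0 and 15.2 FPKM in wild type libraries, a log2 difference of 0.12 (SE 0.10, adjusted p = 0.720).

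**Figure D2:**
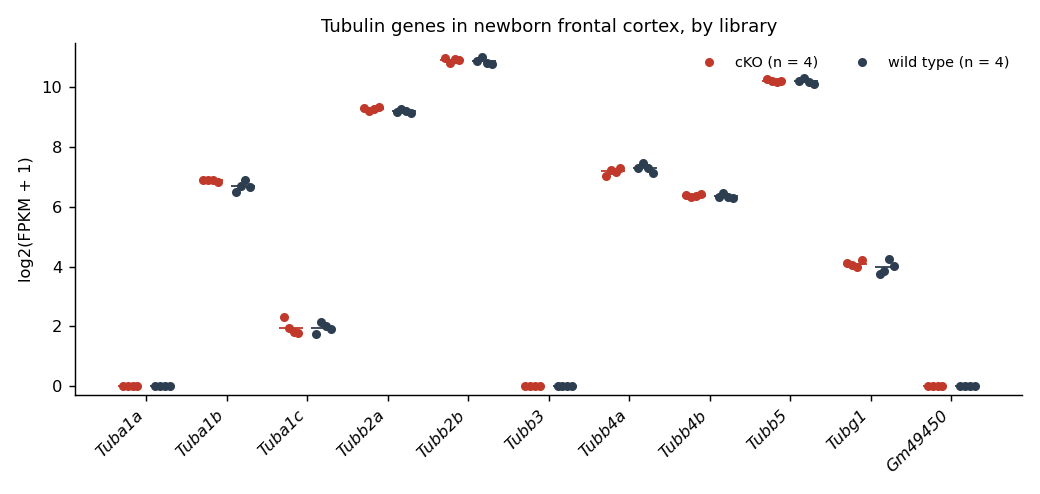
Level of each tubulin gene and of Gm49450, as log2(FPKM + 1), in 4 cKO (red, left of each pair) and 4 wild type (dark) frontal cortex libraries; points are libraries and lines are group means. The 8 members above 0 overlap between the groups, and Tuba1a, Tubb3 and Gm49450 are listed at 0 in every library.

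The spread between replicates was small for Tubb2b, Tubb5, Tubb2a and Tubb4b, but not for every abundant member. The within-group SD of log2(FPKM + 1) was 0.05 for Tubb2a, 0.06 for Tubb4b, 0.07 for Tubb5 and 0.08 for Tubb2b, beside a median of 0.12 for the 6863 genes with at least 10 FPKM. Tuba1b had an SD of 0.12, Tubb4a of 0.13 and Tubg1 of 0.16. Tuba1c, with few FPKM, had an SD of 0.22. Of the single transcripts, 12 were tested and none was called (adjusted p by limma of at least 0.828), where 1 of 26722 transcripts, 0.00374%, was called in all. The main protein-coding form carried most of each gene: Tubb5-201 made up 97.2% to 97.8% of Tubb5 in cKO libraries and 96.7% to 97.8% in those of wild type, and Tubb2b-201 at least 99.9% of Tubb2b in every frontal cortex library.

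Between the beta genes, the proportions varied little among frontal cortex libraries, except that of Tubb4a, which ran from 3.16% in cKO 1 to 4.215% in wild type 2. Of the summed FPKM of the 5 beta members above 0, Tubb2b took 48.6% ± 1.04 in cKO and 48.5% ± 0.594 in wild type libraries (SD, n = 4 each). Tubb5 ranged between 29.3% and 31.0% in cKO libraries, and its mean was 30.2% ± 0.227 in wild type libraries (SD, n = 4). Tubb2a took 15.7% ± 0.275 in cKO and 15.2% ± 0.481 in wild type libraries. Tubb4a took 3.65% ± 0.353 in cKO and 4.03% ± 0.166 in wild type, and Tubb4b 2.07% ± 0.0363 in cKO and 2.09% ± 0.0343 in wild type libraries.

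**Figure D3:**
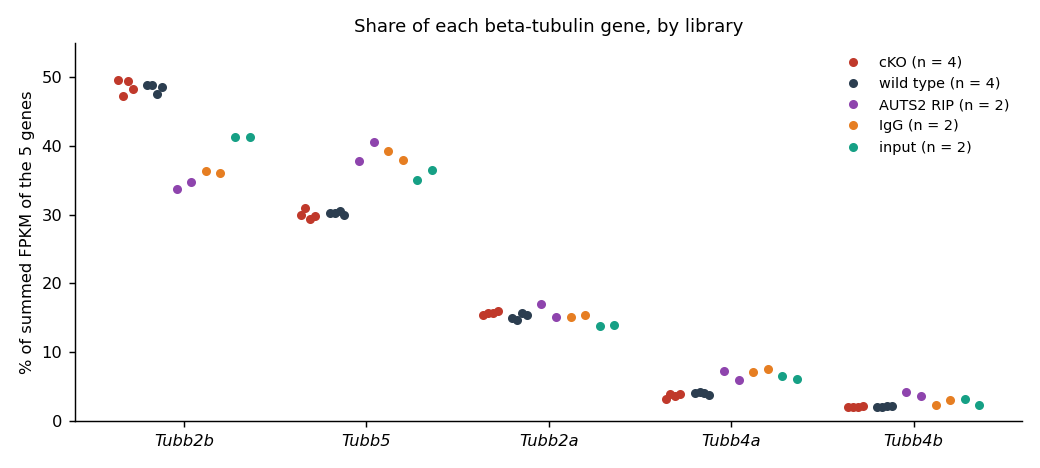
Share of each of 5 beta-tubulin genes in their summed FPKM, in percent, for each cKO, wild type, AUTS2 RIP, IgG and input library (from left to right in each group of points). Tubb2b holds 47.3% to 49.5% in cKO frontal cortex and 47.6% to 48.9% in that of wild type, but 33.8% and 34.8% in AUTS2 RIP, 36.0% and 36.3% in IgG and 41.3% in both input libraries.

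Genes whose profile over the 8 frontal cortex libraries lay nearest to that of the summed members were Ppif, Mdh2, Actr1a, Podxl2 and Atp6v0d1, among 6856 genes with at least 10 FPKM. Likeness was measured as the root mean square difference of centred log2(FPKM + 1), which was 0.02 for Ppif and 0.03 for the other 4, beside a median of 0.13 over all genes compared. Tuba1a and Tubb3, listed at 0, added nothing to this sum. The summed members varied little, with an SD of 0.06 on that scale over the 8 libraries, so genes of small variation come near them. Ppif encodes a mitochondrial cyclophilin, Mdh2 the mitochondrial malate dehydrogenase, Actr1a the filament-forming subunit of dynactin, Podxl2 a sialomucin and Atp6v0d1 a subunit of the vacuolar proton pump.

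The second comparison, AUTS2 RIP against IgG, asked which mRNAs came down with the AUTS2 antibody beyond non-specific binding. None of the 10 members was called by limma with Benjamini-Hochberg adjustment, where 23.4% of the 14570 genes tested were called, 1994 higher and 1412 lower. Groups did not overlap for 4 of the 10 members, against 64.4% of all genes. The median log2 fold change (AUTS2 RIP over IgG) was -0.01 for the members and 0.02 for all genes. With 2 libraries a group, each comparison rests on 4 libraries, and the main fits did not pair the libraries of a pool.

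The more abundant members stood at like levels in both pull-downs. Tubb5 had 594 and 536 FPKM in AUTS2 RIP and 606 and 495 FPKM in IgG libraries, a log2 difference of 0.04 (SE 0.12, 95% interval -0.26 to 0.35). Tubb2b had 530 and 461 FPKM in AUTS2 RIP and 561 and 469 FPKM in IgG libraries, a log2 difference of -0.05 (SE 0.13, 95% interval -0.36 to 0.25). In both genes the IgG libraries spanned most of the AUTS2 RIP range. Tubb3 had 348 and 278 FPKM in AUTS2 RIP and 299 and 256 FPKM in IgG libraries, and Tubb2a had 266 and 199 FPKM in AUTS2 RIP and 234 and 200 FPKM in IgG libraries. Tuba1a had 391 and 319 FPKM in AUTS2 RIP and 428 and 385 FPKM in IgG libraries, a log2 difference of -0.20 (SE 0.13, 95% interval -0.51 to 0.11). Tubb4a had 114 and 79.4 FPKM in AUTS2 RIP and 109 and 97.7 FPKM in IgG libraries, with IgG inside the AUTS2 RIP range.

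The members whose groups did not overlap were less abundant. Tubb4b had 65.2 and 48.1 FPKM in AUTS2 RIP and 36.1 and 40.4 FPKM in IgG libraries, a log2 difference of 0.54 (SE 0.17, adjusted p = 0.0634 by limma). Both AUTS2 RIP values were the higher ones. With the minimum mean raised to 5 FPKM, the adjusted p of Tubb4b was 0.0370. Tubg1 had 14.8 and 12.5 FPKM in AUTS2 RIP and 7.56 and 10.8 FPKM in IgG libraries, a log2 difference of 0.54 (SE 0.22, adjusted p = 0.125). Tuba1c averaged 1.96 ± 0.317 FPKM in AUTS2 RIP (SD, n = 2), against 6.56 and 3.41 FPKM in IgG, which gave a log2 difference of -0.97 (SE 0.33, adjusted p = 0.0835). Its adjusted p was 0.0419 after removing the trends of length and GC content with the replicate block that pairs the libraries of a pool. Tuba1b had 12.5 and 8.16 FPKM in AUTS2 RIP and 13.4 and 12.9 FPKM in IgG libraries, a log2 difference of -0.35 (SE 0.23, adjusted p = 0.314).

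The third comparison, AUTS2 RIP against input, asked which mRNAs were more or less frequent in the pull-down than in the lysate. Of the 10 members, 3 were called and all 3 were lower in AUTS2 RIP by limma with Benjamini-Hochberg adjustment, where 35.9% of 14458 genes were called, 2795 higher and 2393 lower. The members' share of calls was thus near that of all genes. These calls are from the fit that did not pair the libraries of a pool. With the replicate block, which pairs them, Tuba1c lost its call and Tubb4b was called higher, as given below. Groups did not overlap for 4 members, against 71.1% of all genes, and the median log2 fold change (AUTS2 RIP over input) was 0.03 for the members and -0.02 for all genes. This comparison uses the same AUTS2 RIP libraries as the one with IgG.

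Tuba1a fell to 398 and 324 FPKM in AUTS2 RIP, against 522 and 476 FPKM in input libraries, a log2 difference of -0.47 (SE 0.12, 95% interval -0.76 to -0.18, adjusted p = 0.0275). Tubb2b fell to 539 and 468 FPKM in AUTS2 RIP, against 651 and 619 FPKM in input libraries, a log2 difference of -0.34 (SE 0.09, 95% interval -0.57 to -0.11, adjusted p = 0.0373). Tuba1c fell to 2.22 and 1.76 FPKM in AUTS2 RIP, against 4.29 and 4.37 FPKM in input libraries, a log2 difference of -0.84 (SE 0.25, adjusted p = 0.0445). In all 3 genes both AUTS2 RIP libraries lay below both input libraries. Each of these calls was lost when 1 library was left out: the adjusted p of Tuba1a was 0.118 without AUTS2 RIP B, 0.166 without input A and 0.101 without input B, and that of Tubb2b was 0.0576 without AUTS2 RIP A, 0.157 without AUTS2 RIP B, 0.172 without input A and 0.121 without input B. That of Tuba1c was 0.164, 0.234, 0.0921 and 0.0975 without AUTS2 RIP A, AUTS2 RIP B, input A and input B. Quantile normalization also ended the 3 calls, with adjusted p values of 0.0626 for Tuba1a, 0.106 for Tubb2b and 0.0918 for Tuba1c.

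Tubb4b had 66.4 and 48.9 FPKM in AUTS2 RIP and 50.7 and 34.7 FPKM in input libraries, a log2 difference of 0.43 (SE 0.22, adjusted p = 0.183). Pool A was the higher of the pair in both groups. With the replicate block, which pairs the libraries of a pool, Tubb4b was called higher in AUTS2 RIP (adjusted p = 0.0260) and the call of Tuba1c was lost (adjusted p = 0.0659). Tubg1 had 15.0 and 12.7 FPKM in AUTS2 RIP and 12.6 and 7.39 FPKM in input libraries, without overlap, a log2 difference of 0.47 (SE 0.26, adjusted p = 0.212). Tubb3 had a log2 difference of 0.16 (SE 0.12), Tubb2a of 0.13 (SE 0.15), Tubb5 of 0.06 (SE 0.08) and Tubb4a of -0.00 (SE 0.18), and Tuba1b of -0.16 (SE 0.24). For each of these 5 the groups overlapped. Gm49450, which shares exons with Tuba1a and Tuba1b, had both AUTS2 RIP libraries below both input libraries, as given above with the zeros.

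**Figure D4:**
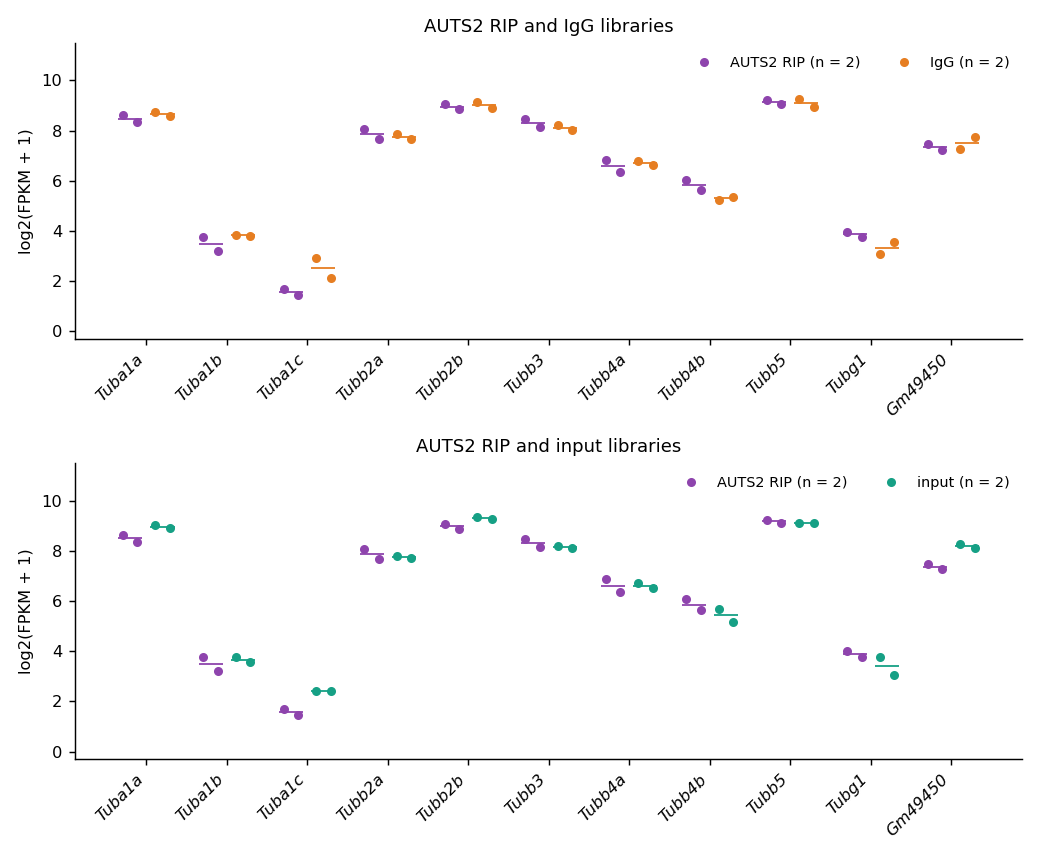
Level of each tubulin gene and of Gm49450, as log2(FPKM + 1), in AUTS2 RIP (purple, left of each pair), IgG (orange, upper panel) and input libraries (green, lower panel), 2 libraries a group, with lines at group means. Tuba1a, Tuba1c and Tubb2b lie lower in both AUTS2 RIP libraries than in both input libraries.

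**Figure D5:**
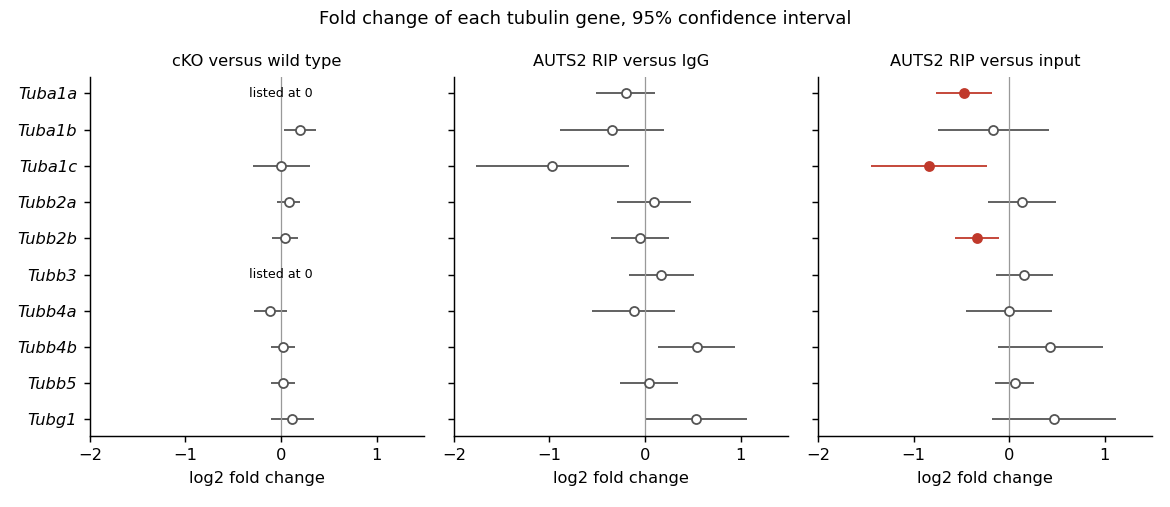
Log2 fold change of each tubulin gene with its 95% confidence interval, cKO over wild type (4 libraries each), AUTS2 RIP over IgG and AUTS2 RIP over input (2 libraries each). The fits did not pair the libraries of a pool. Filled red points are the 3 calls, Tuba1a, Tuba1c and Tubb2b in AUTS2 RIP against input. Tuba1a and Tubb3 have no value in the first panel because they are listed at 0.

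Some marker genes of cell types moved with the pull-down comparisons, where 23.4% of all genes were called against IgG and 35.9% against input. Against IgG, summed markers of dividing cells were at 90.1 and 92.3 FPKM in AUTS2 RIP and 51.2 and 60.3 FPKM in IgG libraries, with 2 of 8 called higher and 0 lower, and of the markers of postmitotic neurons 3 of 10 were higher and 2 lower. Against input, summed markers of radial glia were at 278 and 294 FPKM in AUTS2 RIP and 393 to 434 FPKM in input libraries, with 0 of 8 markers called higher and 1 lower. The lower sum did not hold marker by marker: 6 of the 8 had a positive difference, with a median log2 fold change of 0.23. Summed markers of dividing cells were at 91.7 and 93.7 FPKM in AUTS2 RIP and 51.5 and 52.9 FPKM in input libraries, with 3 of 8 higher and 0 lower. Those of postmitotic neurons were at 1399 and 1430 FPKM in AUTS2 RIP and 1363 to 1407 FPKM in input libraries, with 4 of 10 higher and 4 lower. Other marker lists also held calls against input. Of the oligodendrocyte lineage 4 of 7 markers were higher and 1 lower (median log2 fold change 0.645), and of interneurons 2 of 7 were higher and 0 lower. Red blood cells had 0 of 4 higher and 2 lower (median -1.14), and astrocytes 0 of 5 higher and 2 lower. The part of the cell type markers in the tubulin values was not tested.

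At the level of single transcripts no member was called in the pull-down comparisons. In AUTS2 RIP against IgG, 16 member transcripts were tested, and 0% of 31647 transcripts were called in all by limma, although 7158 had an unadjusted p under 0.05. In AUTS2 RIP against input, 6.84% of 31189 transcripts were called. The makeup of Tubb5 differed most from that of frontal cortex: Tubb5-201, the full coding form, made up 66.7% and 70.2% of Tubb5 in AUTS2 RIP, 60.8% and 67.7% in IgG and 70.6% and 73.3% in input libraries. Tubb5-204, a retained-intron form, had 141 and 122 FPKM in AUTS2 RIP and 199 and 118 FPKM in IgG libraries. In the table with input it had 144 and 124 FPKM in AUTS2 RIP and 142 and 132 FPKM in input libraries. In frontal cortex it had 14.4 to 21.5 FPKM in cKO and 12.2 to 24.9 FPKM in wild type libraries. Tubb5-203, another retained-intron form, had 23.8 and 35.0 FPKM in AUTS2 RIP and 13.0 and 15.8 FPKM in IgG libraries, a log2 difference of 0.96 (SE 0.24, adjusted p = 0.131). Against input, in the separately scaled table, it had 24.2 and 35.5 FPKM in AUTS2 RIP and 1.98 and 11.1 FPKM in input libraries, a log2 difference of 2.34 (SE 0.76, adjusted p = 0.153). Both AUTS2 RIP values of Tubb5-203 were above those of IgG and of input. Other forms than 201 also differed. Their log2 differences against IgG were 2.46 (Tubb3-202, SE 1.25), 0.61 (Tubb4b-202), 0.57 (Tubg1-202), -0.22 (Tubb5-204) and -0.68 (Tubb5-202). Against input they were 1.45 (Tubb4b-202), 1.05 (Tubg1-202), 0.93 (Tubb5-202), 0.86 (Tubb3-202) and -0.03 (Tubb5-204). Frontal cortex libraries were selected for polyA and pull-down libraries were made from total RNA.

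The other genes of tubulin biology were followed by lists. In cKO against wild type, none of their members was called. The partners of gamma-tubulin in the ring complex and at the centrosome moved most in the pull-down. In AUTS2 RIP against IgG, where 23.4% of all genes were called, 7 of 11 were called higher and 1 lower, with a median log2 fold change of 0.89 beside 0.02 for all genes. Against input, where 35.9% of all genes were called, 8 were higher and 1 lower, with a median of 0.98 beside -0.02. The dividing-cell markers given above were also higher in sum in both comparisons, with medians of 0.37 against IgG and 0.76 against input, and their part in the ring-complex values was not tested. Tubgcp2, a core subunit of the ring, averaged 47.6 ± 2.22 FPKM in AUTS2 RIP and 19.6 ± 2.23 FPKM in IgG libraries (SD, n = 2 each; log2 1.25, SE 0.14, adjusted p = 0.00367 by limma). Pcnt, the centrosome scaffold pericentrin, averaged 29.1 ± 0.726 FPKM in AUTS2 RIP and 10.1 ± 1.45 FPKM in IgG libraries (log2 1.45, SE 0.16). Cdk5rap2, which activates the ring complex, and Akap9, a large scaffold of the Golgi and centrosome, rose by 1.31 and 0.89 on the log2 scale. Mzt1, a small ring subunit and the 1 lower call, fell to 2.36 ± 0.572 FPKM in AUTS2 RIP, against 5.66 ± 0.120 FPKM in IgG libraries.

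The listed ring-complex genes had long mRNAs, with a median length, in the table with IgG, of 3797 bases beside 2600 for all genes tested and 1836 for the tubulins themselves. With the trends of length and GC content removed, 7 of 11 were higher and 0 lower against IgG and 8 higher and 1 lower against input. Leaving out IgG A ended all calls of the list against IgG, as it ended those of all genes, while 4 were higher without AUTS2 RIP A, 5 without AUTS2 RIP B and 6 without IgG B, and none was lower. Against input, 5 were higher without AUTS2 RIP A or AUTS2 RIP B, 8 without input A and 6 without input B. With the replicate block, Tubgcp5 lost its call against IgG.

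Of the enzymes that add or remove tyrosine, glutamate and acetyl groups on tubulin, 6 of 18 were higher and 1 lower against IgG, beside 23.4% of all genes called, with a median log2 fold change of 0.14. Hdac6, which deacetylates alpha-tubulin, averaged 43.6 ± 3.67 FPKM in AUTS2 RIP and 19.2 ± 3.42 FPKM in IgG libraries (log2 1.15, SE 0.16, adjusted p = 0.00636 by limma). Ttll4 and Ttll5, which add glutamate, rose by 1.24 and 1.01 on the log2 scale, and Agtpbp1, which removes it, by 0.74. Against input 5 of 18 were higher and 1 lower, near the 35.9% of all genes called, with a median of 0.39. The lower one was Ttl, the tubulin tyrosine ligase, which fell by 0.85 on the log2 scale (SE 0.14, adjusted p = 0.00721 by limma). Of the genes that destroy tubulin mRNA during translation, 3 of 8 were higher and 1 lower in each of these comparisons, beside 23.4% and 35.9% of all genes called against IgG and input. The list's median log2 fold change was -0.01 against IgG and -0.08 against input. Scaper, which links the sensor of the first 4 codons to the deadenylase, rose by 0.85 against IgG and 0.73 against input on the log2 scale, and Cnot1 and Cnot3, subunits of the deadenylase, also rose. Cnot7, a catalytic subunit of the deadenylase, fell by 0.72 against IgG and by 0.76 against input. Ttc5, the sensor itself, was not called in either. Without AUTS2 RIP A, AUTS2 RIP B, IgG A and IgG B, the higher calls against IgG were 2, 2, 0 and 4 among the modifying enzymes and 1, 0, 0 and 2 among the genes of mRNA decay. Against input they were 2 and 1 among the modifying enzymes without AUTS2 RIP A and AUTS2 RIP B, and 2 among the genes of mRNA decay without either of these.

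The lists of the folding machinery of new tubulin did not share a direction. Of all genes, 23.4% were called against IgG and 35.9% against input. Of 8 tested subunits of the CCT chaperonin, which folds alpha- and beta-tubulin, 2 were higher and 0 lower against IgG, and 2 higher and 2 lower against input. Cct5 averaged 102 ± 5.13 FPKM in AUTS2 RIP and 66.6 ± 0.602 FPKM in IgG libraries (log2 0.60, SE 0.10, adjusted p = 0.0108 by limma), and Cct3 rose by 0.57 against IgG. Tcp1 fell to 57.9 ± 1.49 FPKM in AUTS2 RIP, against 90.8 ± 6.61 FPKM in input libraries. Of the 6 subunits of prefoldin, which hands new tubulin to CCT, 1 was lower against IgG and 4 were lower against input, among them Vbp1 at 9.14 ± 2.72 FPKM in AUTS2 RIP and 24.1 ± 3.97 FPKM in input libraries. Prefoldin mRNAs were short, with a median of 1086 bases, and with the trends of length and GC content removed 0 were lower against IgG and 2 against input. With 1 library left out, no CCT subunit was called higher in either comparison, and the lower prefoldin calls against input were 0 without AUTS2 RIP A, 2 without AUTS2 RIP B and 1 without input A or input B. Of 8 tubulin cofactors, which assemble the dimer, 0 were called against IgG and only Tbcc, higher, against input. Median log2 fold changes against IgG were 0.07 for CCT, -0.29 for prefoldin and 0.39 for the cofactors, beside 0.02 for all genes. Against input the medians were -0.28 for CCT, -0.80 for prefoldin and 0.35 for the cofactors, beside -0.02 for all genes.

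The remaining lists had few calls, where 23.4% of all genes were called against IgG and 35.9% against input. Of 8 augmin subunits, which bring gamma-tubulin to existing microtubules, 0 were higher and 1, Haus2, was lower against IgG, and Haus1 and Haus2 were lower against input. Of the other tubulins, 4 were tested in each pull-down comparison, and Tubg2, the sister of Tubg1, was the only call, at 8.51 ± 0.213 FPKM in AUTS2 RIP and 4.35 ± 0.227 FPKM in input libraries.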

How the data were processed

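RNA was sequenced from frontal cortex after polyA selection with a TruSeq kit, and, per the labels' protocols, from the pull-down by a stranded SMARTer protocol. The authors deposited FPKM per transcript, per the file headers, which name GENCODE vM14. Cuffdiff 2.2.1, SAMtools and STAR 2.5 were used, with GRCm38.p4 and mm10 as builds, per the submitters' processing notes. The sources used here give no filters, strand settings or scaling. AUTS2 RIP values in the tables with IgG and with input differed by a factor of 1.018 (A) and 1.015 (B), so tests stayed within a table. There are no counts, so depth and counting error are unknown. The column of cKO 4 was matched by library number, since its short name differs from the label.

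Transcripts were summed per symbol with GENCODE vM21 names (533 of 128508 transcripts did not match). R 4.3.3 and limma 3.58.1 served to test genes or transcripts averaging at least 1 FPKM, on the scale of log2(FPKM + 1) (trend and robust empirical Bayes, two-sided, Benjamini-Hochberg at 0.05), after a test on simulated data. Fold changes on that scale understate those of low genes. Python 3.11.15, pandas 2.3.3 and Biopython served for tables and alignments. Libraries of one pool of neonates are paired by the series' design (correlation of deviations 0.00879 with IgG and 0.0120 with input, across genes). The members, lists and tests were chosen with earlier results of these data known. Named are all members, called list genes (at most 4 per list and comparison by smallest p), Auts2, genes overlapping or next to members at 0 and the 5 genes nearest to the summed members. Mzt1, Tubgcp5, Ttc5, Ankrd11 and Cox4i1 fall outside that rule and were chosen after their values were seen. Alternatives changed the pseudocount, filter, scaling, moderation, summing, length and GC trends, block and libraries. Some sequences and one list are not reported here.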

Additional observations from a re-analysis of the deposited data

Results flagged for a closer look

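Tubb5-203, a retained-intron transcript of Tubb5, had 8.11 FPKM in wild type 3, while the other 3 wild type libraries lay between 7.15 and 7.27 FPKM. The gap to its nearest neighbour was 0.879 of the group's range. It was the only such case among 40 groups of 4 libraries examined for member genes and transcripts, and chance gives about 1 in 20. The 40 groups are not separate looks, since a gene and its main transcript had the same or nearly the same values.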

How the results depend on the processing

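In cKO against wild type, no member was called under any alternative. Against 3 genes called in all, 1 was called with no filter on low values, 1 with limma without trend and robust, 1 with Xist state as a covariate, 0 without wild type 1 and 2, and 1 to 3 when 1 library was left out. Against 1 transcript called, there were 0 with no filter, 0 with the replicate block and 0 to 2 when 1 library was left out. Same-numbered cKO and wild type libraries share only a number (correlations of deviations 0.176, 0.0173, -0.0394 and 0.0659).

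In AUTS2 RIP against IgG, 3406 genes were called, 1876 with limma without trend and robust and 0 to 1806 when 1 library was left out (0 without IgG A). Against input, 5188 genes were called and 1395 to 3471 when 1 library was left out; 2133 transcripts were called, 1077 with a pseudocount of 0.1, 0 with no filter, 3 with the replicate block and 0 when any 1 library was left out. Where 1 library remains in a group, it is assumed to vary like the other group. Over 810 alternatives for member genes and transcripts, a call was lost in 20, gained in 4 and turned round in none. Among the losses, with no filter the 3 calls against input had adjusted p values of 0.0527 (Tuba1a), 0.0601 (Tubb2b) and 0.0767 (Tuba1c), and without trend and robust Tuba1a had 0.118 and Tubb2b 0.180. Among the gains, Tubb4a was called lower against input with length and GC trends removed and the replicate block (adjusted p = 0.0356). The replicate block changed no other member call than those given. The causes were not tested. Depth is unknown, and sequence shared between the alpha genes limits all their values.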
